A study of Mus musculus with 13 samples.

Results

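The genes described are 10 transcriptional targets of the tumour suppressor p53: Cdkn1a, Mdm2, Ccng1, Phlda3, Bbc3, Bax, Sesn2, Trp53inp1, Zmat3 and Perp. They were chosen by name, with earlier results of these data known. All 10 were found among the 23217 genes of the deposited table. Their levels were read one by one in 13 mouse embryos (C57BL/6J, collected at embryonic day 9.5), of which 10 are labelled xHomo and 3 xHet. The study asks about Tet1, which oxidizes methylated cytosine in DNA, in the erasure of genomic imprints. The labels spell out neither group name. As the study is known, they stand for fathers homozygous or heterozygous for a Tet1 mutation, so the Tet1 genotype of an embryo itself is not given, nor are litter, sex or dissection batch. Values are FPKM, mapped fragments scaled by transcript length and library total, so that levels can be compared between genes.

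p53 is a transcription factor that Mdm2 and Mdm4 hold low in unstressed cells. When DNA damage, nucleolar stress or other insults release it, it binds response elements made of a pair of decamers and raises transcription of genes that stop the cell cycle, start apoptosis, limit growth signalling or restrain p53 itself. In the mouse embryo this restraint is essential, since embryos lacking Mdm2 or Mdm4 die unless p53 is removed too. In bulk embryo RNA a lower level in every cell and fewer cells of an expressing type cannot be told apart.

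p53 acts on its targets through such elements, and sequences are shown for Cdkn1a, Ccng1 and Bbc3, the 3 members with a match to one in the promoter window searched. The windows are from RefSeq on build GRCm38.p6, each with 250 bases before and 50 after a transcription start, written 5′ to 3′ on the gene's strand, with the matched element in capitals. Cdkn1a has a pair of starts there, on the plus strand. The upstream one, with the element beginning 51 bases before the start, spans chr17:29090729-29091028, and the downstream one, without a match, spans chr17:29093519-29093818. The Ccng1 window, on the minus strand, spans chr11:40755237-40755536, with the element 195 bases before the start. The matching Bbc3 window, on the plus strand, spans chr7:16309333-16309632, with the element 97 bases before the start.
Cdkn1a, upstream start: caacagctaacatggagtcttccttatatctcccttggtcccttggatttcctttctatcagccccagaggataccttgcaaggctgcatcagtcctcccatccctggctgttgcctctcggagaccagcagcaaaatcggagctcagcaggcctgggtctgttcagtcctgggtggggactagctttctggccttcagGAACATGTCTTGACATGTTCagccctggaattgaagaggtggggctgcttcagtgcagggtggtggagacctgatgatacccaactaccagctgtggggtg
Cdkn1a, downstream start: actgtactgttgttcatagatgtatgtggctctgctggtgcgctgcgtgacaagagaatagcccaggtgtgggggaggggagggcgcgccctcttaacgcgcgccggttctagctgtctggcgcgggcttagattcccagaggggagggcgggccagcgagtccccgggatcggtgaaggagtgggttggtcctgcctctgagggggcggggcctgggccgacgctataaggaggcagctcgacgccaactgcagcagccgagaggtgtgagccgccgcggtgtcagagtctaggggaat
Ccng1: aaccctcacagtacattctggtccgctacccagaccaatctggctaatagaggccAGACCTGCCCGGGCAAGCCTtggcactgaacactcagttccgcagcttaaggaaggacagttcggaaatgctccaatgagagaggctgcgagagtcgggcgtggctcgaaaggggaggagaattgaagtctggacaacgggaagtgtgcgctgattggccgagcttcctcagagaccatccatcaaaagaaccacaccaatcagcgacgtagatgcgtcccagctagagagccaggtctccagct
Bbc3: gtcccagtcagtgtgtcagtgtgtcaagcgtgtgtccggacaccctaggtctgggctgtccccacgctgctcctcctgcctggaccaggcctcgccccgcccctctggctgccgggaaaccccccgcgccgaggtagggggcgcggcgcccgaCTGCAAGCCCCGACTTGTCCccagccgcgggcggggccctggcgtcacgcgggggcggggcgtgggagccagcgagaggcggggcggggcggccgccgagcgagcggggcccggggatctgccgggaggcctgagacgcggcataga

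The search used 2 adjacent copies of the p53 decamer, 20 bases with the invariant letters CNNGNNNNNNCNNG, and allowed up to 3 mismatches elsewhere. This element reads alike on either strand, so a search of one strand covers both. The limit of 3 was set after these sequences were seen. The Cdkn1a and Ccng1 elements differ from the consensus at 1 position each, and the Bbc3 element at 3. Of 32851 windows of this length in the mouse table, 1.38% held a match with up to 3 mismatches and 0.067% one with up to 1. RefSeq windows were matched by symbol for 7 of the members, 10 windows in all. Those of Phlda3, Sesn2, Bax and Mdm2, both other Bbc3 starts and the downstream Cdkn1a start held no match, which says only that these letters are not in those windows. Trp53inp1, Zmat3 and Perp had no window.

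The libraries differed in their totals. Summed FPKM ran from 500126 to 662936 in xHomo embryos and from 543948 to 570161 in xHet embryos, highest in xHomo embryos 8 and 9 and lowest in xHomo embryo 3, while depth in reads is unknown. xHomo embryo 3 stands apart, with 62.3% of all genes below the lowest xHet embryo. All 13 markers of the embryo proper averaged at least 1 FPKM, and they summed to 4477 to 12887 FPKM in xHomo and 8677 to 8885 FPKM in xHet embryos. Most of this sum came from 3 embryonic globins, and the other 10 markers summed to 276 to 418 FPKM in xHomo and 309 to 346 FPKM in xHet embryos. Of 6 trophoblast markers, with a summed level of 5.16 to 13.6 FPKM in xHomo and 7.38 to 10.2 FPKM in xHet embryos, Tpbpa and Gcm1 stayed under 1 FPKM. Of 6 decidual markers, with a summed level of 6.32 to 10.2 FPKM in xHomo and 6.62 to 7.85 FPKM in xHet embryos, the prolactin-family genes Prl8a2, Prl3c1 and Prl6a1 and Alox15 did so. Only the other 2, Bmp2 and Wnt4, averaged at least 1 FPKM, with Wnt4 the highest of that list. Of 7 yolk sac endoderm markers, 4 stayed under 1 FPKM, and the list summed to 10.4 to 66.6 FPKM in xHomo and 29.9 to 42.1 FPKM in xHet embryos. Of 5 macrophage markers measured, 3 stayed under 1 FPKM, and the list summed to 3.03 to 7.88 FPKM in xHomo and 5.54 to 8.18 FPKM in xHet embryos. The part of these cells in the results was not tested.

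Cdkn1a, which encodes the cyclin-dependent kinase inhibitor p21 that halts the cell cycle, was the member whose groups stood apart without overlap. Its locus in the table is on chromosome 17 from 29227930 to 29237667 (build mm9, as deposited for all loci given here, with no statement whether starts count from 0 or 1), with 2 start-site IDs. It ran from 3.83 over a median of 4.74 to 8.39 FPKM in the xHomo embryos, and was 3.48, 3.20 and 2.56 FPKM in xHet embryos 1 to 3. Each of the 10 xHomo embryos lay above the highest xHet embryo, which was so for 1.66% of the 12755 genes tested. The mean was 5.02 ± 1.33 FPKM in xHomo embryos (SD, n = 10) and 3.08 ± 0.472 FPKM in xHet embryos (SD, n = 3), a log2 change of 0.54 on log2(FPKM+1) (95% interval 0.19 to 0.90). After Benjamini-Hochberg adjustment over all genes tested this did not pass the threshold of 0.05 (limma adjusted p = 0.481, unadjusted p = 0.00564). xHomo embryo 9 was the highest by a wide gap, and the next was xHomo embryo 8 at 5.69 FPKM. Without xHomo embryo 9 the log2 change was 0.47 (limma adjusted p = 0.451).

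**Figure D1:**
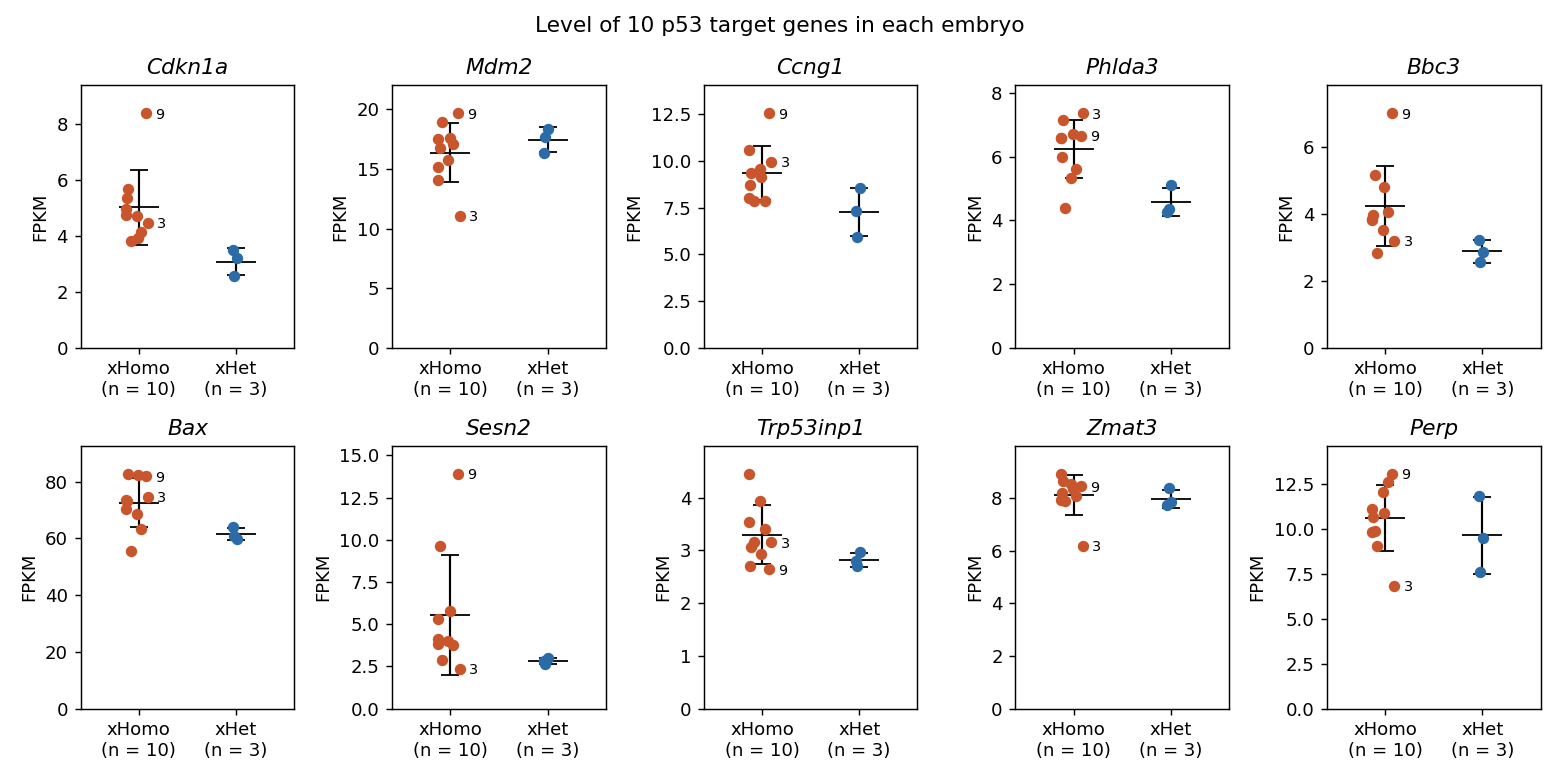
FPKM of each of the 10 p53 target genes (linear axes from 0), with 1 point per embryo, xHomo left and xHet right, and bars for the mean and SD; xHomo embryos 3 and 9 are numbered. Cdkn1a has all 10 xHomo points above the xHet points, and xHomo embryo 9 is the highest point of 6 genes.

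Phlda3, which encodes a pleckstrin homology protein that competes with Akt at the membrane, lies on chromosome 1 from 137662661 to 137665711. It ran from 4.38 over a median of 6.59 to 7.37 FPKM in the xHomo embryos, and was 4.28, 5.10 and 4.36 FPKM in xHet embryos 1 to 3. xHomo embryo 2 alone lay within the xHet range, and the other 9 were above it. Its log2 change was 0.37 (SE 0.12, limma adjusted p = 0.491, unadjusted p = 0.00959).

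Ccng1, which encodes cyclin G1, a partner of phosphatase 2A that acts on Mdm2, lies on chromosome 11 from 40562053 to 40568788. It ran from 7.84 over a median of 9.27 to 12.6 FPKM in xHomo embryos, and was 7.33, 8.55 and 5.94 FPKM in xHet embryos 1 to 3. There was overlap, with 7 of 10 xHomo embryos above the highest xHet embryo and none below the lowest. Its log2 change was 0.33 (SE 0.13, limma adjusted p = 0.513, unadjusted p = 0.0262), and 0.20 without xHet embryo 3, the lowest (limma unadjusted p = 0.192).

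Mdm2, the ubiquitin ligase that targets p53 for degradation and is induced by it, went the other way in its mean. Its locus is on chromosome 10 from 117125960 to 117147772. It ran from 11.1 over a median of 17.0 to 19.7 FPKM in the xHomo embryos, and was 16.3, 18.4 and 17.7 FPKM in xHet embryos 1 to 3. Only xHomo embryos 2 and 9 were above the xHet range, while 4 were below it. Its log2 change was -0.10 (95% interval -0.38 to 0.18, limma adjusted p = 0.830), and -0.044 without xHomo embryo 3.

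The members that drive apoptosis differed in level by more than 10-fold. Bbc3, which encodes the BH3-only protein Puma, was among the lowest and Bax, the effector that opens the outer mitochondrial membrane, was the highest of the 10 genes. Bbc3 (chromosome 7, 16894931 to 16903683) ran from 2.84 over a median of 3.91 to 7.01 FPKM in xHomo embryos, and was 3.23, 2.86 and 2.56 FPKM in xHet embryos 1 to 3. Here 8 of 10 xHomo embryos lay above the xHet range, and xHomo embryos 2 and 3 lay within it. Its log2 change stood at 0.40 (SE 0.18, limma adjusted p = 0.521, unadjusted p = 0.0380). Bax (chromosome 7, 52717064 to 52722268) ran from 55.7 over a median of 73.3 to 82.8 FPKM in xHomo embryos, and was 63.9, 59.9 and 60.8 FPKM in xHet embryos 1 to 3. It was above the xHet range in 8 xHomo embryos and below it in xHomo embryo 2, and its log2 change was 0.23 (SE 0.11, limma adjusted p = 0.544, unadjusted p = 0.0602).

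Perp, a membrane protein of desmosomes that p53 also induces in apoptosis, lies on chromosome 10 from 18564876 to 18576878. It ran from 6.84 over a median of 10.8 to 13.1 FPKM in xHomo embryos, and was 11.8, 9.5 and 7.58 FPKM in xHet embryos 1 to 3. Most of this range was covered by the xHet embryos alone. The log2 change was 0.13 (SE 0.16, limma adjusted p = 0.819), and its sign turned on leaving out xHet embryo 3 (-0.018).

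Sesn2, which encodes sestrin 2, a leucine sensor that restrains mTORC1 and is induced by p53 and by the stress factor ATF4, varied most. Its locus is on chromosome 4 from 132048721 to 132066371. It ran from 2.36 over a median of 4.04 to 13.9 FPKM in xHomo embryos, and was 2.81, 2.99 and 2.65 FPKM in xHet embryos 1 to 3. It stood at 9.65 and 13.9 FPKM in xHomo embryos 8 and 9, with xHomo embryos 7 and 10 next at 5.80 and 5.32 FPKM. xHomo embryo 3 was below and xHomo embryo 2 within the xHet range. The log2 change of 0.63 was the widest of the members and also the least certain (95% interval -0.12 to 1.38, limma adjusted p = 0.581), and it was 0.48 without xHomo embryo 9. On log2(FPKM+1) its SD was 0.66 among xHomo embryos and 0.064 among xHet embryos, and 2.98% of genes tested had a larger SD among xHomo embryos.

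Trp53inp1, which encodes a stress protein acting in p53 phosphorylation and autophagy, shares that chromosome (11083587 to 11101524). It ran from 2.64 over a median of 3.16 to 4.45 FPKM in xHomo embryos, and was 2.79, 2.96 and 2.70 FPKM in xHet embryos 1 to 3. Its order was unlike that of Sesn2, with xHomo embryo 5 the highest and xHomo embryo 9 the lowest. Between the groups the log2 change was 0.16 (SE 0.12, limma adjusted p = 0.679).

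Zmat3, an RNA-binding zinc finger protein that regulates splicing, was the steadiest member. Its locus on chromosome 3 (32233715 to 32266360) overlaps that of 4930429B21Rik, so reads may have been shared. It ran from 6.19 over a median of 8.27 to 8.92 FPKM in xHomo embryos, and was 7.73, 7.84 and 8.37 FPKM in xHet embryos 1 to 3. Apart from xHomo embryo 3, the lowest, all xHomo embryos lay above 7.73 FPKM. The log2 change was 0.02 (95% interval -0.18 to 0.21, limma adjusted p = 0.960), with a sign that turned to -0.055 after TPM rescaling, -0.019 after median-of-ratios rescaling and -0.0039 after quantile normalization.

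Read over the 10 members, the group means leaned to one side without any member passing. Limma called 0 of 10, against 0.0235% of all genes tested (3 of 12755). At an unadjusted p under 0.05, 4 of 10 members (Cdkn1a, Phlda3, Ccng1 and Bbc3) were higher in xHomo embryos and 0 lower, against 7.63% and 1.72% of all genes. An exact permutation test per gene over all 286 splits could hardly pass, since its smallest p was 0.0035 and its smallest adjusted p 0.388, so its 0 calls say nothing of the members. Limma with array weights, which give each embryo a weight by its scatter, called 5, against 21.8% of all genes. With those weights the log2 change was 0.56 for Cdkn1a (limma adjusted p = 0.00573), 0.34 for Phlda3, 0.45 for Bbc3, 0.27 for Bax and 0.74 for Sesn2, and the highest adjusted p of these 5 was 0.0202. The median log2 change was 0.28 for the members and 0.05 for all genes tested, with 9 of 10 members and 59.7% of all genes above 0. Since the members were chosen with earlier results of these data known, these shares describe them and test nothing.

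The lean of all genes itself depended on the scaling. At an unadjusted p under 0.05 there were 973 higher and 220 lower genes as deposited, against 481 higher and 559 lower after TPM rescaling, 630 and 687 after median-of-ratios rescaling and 776 and 687 after quantile normalization. Under TPM rescaling the median was 0.21 for the members and -0.02 for all genes, and 3 members (Cdkn1a, Phlda3 and Bbc3) were higher at an unadjusted p under 0.05, against 3.77% of all genes. Without xHomo embryo 3 limma called 0 members, with 5 higher at an unadjusted p under 0.05, against 12.4% of all genes. On the values as deposited but without xHet embryo 3, 2 members were higher at that p (Cdkn1a and Phlda3), against 3.31% of all genes. With only 3 xHet embryos, and no label saying that embryos came from separate litters, the p-values measure the spread between these embryos alone.

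**Figure D2:**
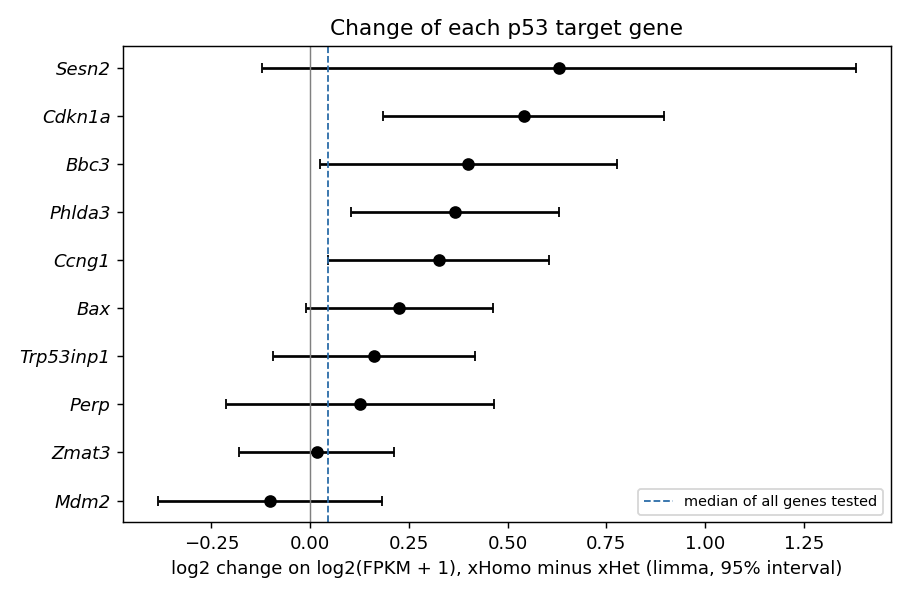
Log2 change of each gene on log2(FPKM+1), xHomo minus xHet, with its 95% interval from limma (13 embryos); the dashed line is the median of all genes tested. The intervals of Cdkn1a, Phlda3, Bbc3 and Ccng1 lie above 0, none with an adjusted p under 0.05, and that of Mdm2 centres at -0.10.

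Xist levels divided the groups unevenly. Xist, which coats an inactive X chromosome, was at most 0.1 FPKM in all 3 xHet embryos and in xHomo embryos 1, 4, 5, 6 and 8, and at least 30.5 FPKM in the other 5 xHomo embryos. Among the 5 xHomo embryos with Xist as low as in the xHet embryos, Cdkn1a was 4.13 to 5.69 FPKM, against 2.56 to 3.48 FPKM in xHet embryos. Phlda3, Bbc3, Sesn2 and Trp53inp1 were also above the highest xHet embryo in each of these 5. That makes 5 of 10 members, against 11.7% of all genes tested. Bax was above it in 4 of them, Ccng1 and Zmat3 in 3, Perp in 2 and Mdm2 in 0. With log2 Xist as a covariate the log2 change of Cdkn1a was 0.50 (limma adjusted p = 0.493) and that of Trp53inp1 was 0.29 (limma adjusted p = 0.491).

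Embryo by embryo, the members did not stand out evenly. In xHomo embryo 9, 9 of 10 members were above all xHet embryos, against 47% of all genes, and 3 of them (Sesn2, Cdkn1a and Bbc3) were at least 1 log2 unit above the xHet mean, against 3.03% of all genes. In that embryo 4.56% of all genes departed by that much in either direction, against 1.45% to 2.3% in the xHomo embryos other than 3 and 9, and 10.2% in xHomo embryo 3. There the log2 difference from the xHet mean was 1.97 for Sesn2, 1.21 for Cdkn1a, 1.05 for Bbc3 and 0.73 for Ccng1, and -0.068 for Trp53inp1, the single member below the xHet range. In xHomo embryo 8, 8 members were above all xHet embryos (all genes 49.6%), led by Sesn2 at 1.48. xHomo embryo 6 also had 9 members above, with smaller differences of up to 0.50 (all genes 51.2%), and xHomo embryo 5 had 8 (all genes 60.5%).

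xHomo embryo 2 had 3 members above (all genes 27.8%) and a median log2 difference of 0.0042 over the 10 members, and it was the lowest xHomo embryo for Cdkn1a, Phlda3, Bbc3 and Bax. xHomo embryo 3 had 5 above (all genes 20.1%) and 4 below, and was the lowest for Mdm2, Sesn2, Zmat3 and Perp but the highest for Phlda3. xHomo embryos 1, 4, 7 and 10 had 6 each, against 30.9%, 49%, 43.4% and 41.7% of all genes. Members below all xHet embryos were fewer. xHomo embryo 3 had the 4 named, against 62.3% of all genes. In xHomo embryos 5, 6 and 10 the single member below was Mdm2, against 14.2%, 18.6% and 23.2% of all genes. In xHomo embryo 2 it was Bax (all genes 30.9%) and in xHomo embryo 9 Trp53inp1 (all genes 30.8%). xHomo embryos 1, 4, 7 and 8 had 0 members below, against 27.6%, 17.7%, 25.5% and 21.7% of all genes.

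**Figure D3:**
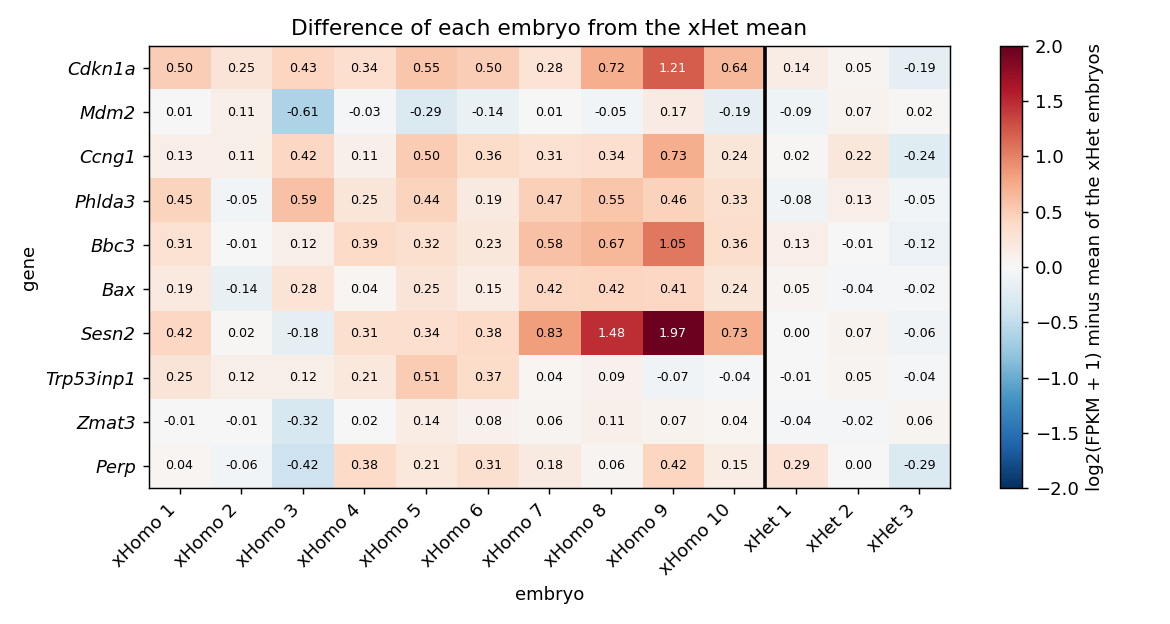
Difference of log2(FPKM+1) from the mean of the 3 xHet embryos for each gene (rows) and embryo (columns, xHomo left of the line, xHet right); red is higher and blue lower. The darkest cells are Sesn2 in xHomo embryos 9 (1.97) and 8 (1.48), and the bluest is Mdm2 in xHomo embryo 3 (-0.61).

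Whether members varied together was asked across the 10 xHomo embryos on log2(FPKM+1). Cdkn1a and Zmat3 were left out because a single embryo stood across more than 0.5 of the range, and the other 8 members gave 28 pairs, with p-values adjusted over these for r and for rho separately. For Bbc3 with Sesn2 Pearson's r was 0.951 (permutation test, p = 0.00011, or 0.00308 adjusted). Spearman's rho for them was 0.830 (permutation test, p = 0.00467, or 0.0654 adjusted). Without xHomo embryos 2 and 9, farthest from the Bbc3 median, r was 0.916. For Phlda3 with Bax Pearson's r was 0.868 (permutation test, p = 0.00171, or 0.0239 adjusted) and Spearman's rho 0.879 (permutation test, p = 0.00148, or 0.0414 adjusted). Without xHomo embryos 2 and 6 their r was 0.690. In Pearson's r these 2 pairs passed of 28, and in Spearman's rho 1 did, Phlda3 with Bax.

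Of the other pairs, 3 had an unadjusted permutation p under 0.05 for r. Bbc3 with Bax had an r of 0.739 (permutation test, p = 0.0160, or 0.150 adjusted), a rho of 0.648 (permutation test, p = 0.0502, or 0.338 adjusted), and an r of 0.589 without xHomo embryos 2 and 9. Bax with Sesn2 had an r of 0.673 (permutation test, p = 0.0342, or 0.239 adjusted), a rho of 0.636 (permutation test, p = 0.0547, or 0.338 adjusted), and an r of 0.710 without xHomo embryos 2 and 4. Ccng1 with Bax had an r of 0.648 (permutation test, p = 0.0430, or 0.241 adjusted), a rho of 0.600 (permutation test, p = 0.0725, or 0.338 adjusted), and an r of 0.533 without xHomo embryos 4 and 9.

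Pairs with Mdm2 or Trp53inp1 gave no such value. Sesn2 with Trp53inp1 had an r of -0.509 (permutation test, p = 0.129, or 0.302 adjusted), a rho of -0.576 (permutation test, p = 0.0883, or 0.338 adjusted), and an r of -0.230 without xHomo embryos 8 and 9. Over all 28 pairs, 18 values of r were positive and the median was 0.41. Pairs of genes outside the members were not examined. Neither this median nor the number of passing pairs can thus be set against that of all genes. The embryos share a library total with every gene, and under TPM rescaling the median over the 36 pairs then available was 0.11, with Bbc3 and Sesn2 and Phlda3 and Bax passing there too. These pairs include Zmat3, so the medians do not cover the same pairs. The median was 0.25 after median-of-ratios rescaling and 0.23 after quantile normalization. Under quantile normalization Phlda3 was left out for its gap, and Bbc3 with Bax passed beside Bbc3 with Sesn2. Without xHomo embryo 2 the r of Phlda3 and Bax was 0.711 (permutation adjusted p = 0.174) and without xHomo embryo 8 it was 0.851 (permutation adjusted p = 0.0970). Without xHomo embryo 4 Bax, and without xHomo embryo 8 Sesn2, had a gap too wide for a pooled r. For Bbc3 and Sesn2 r was 0.896 to 0.962 over the 9 repeats that could be computed.

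**Figure D4:**
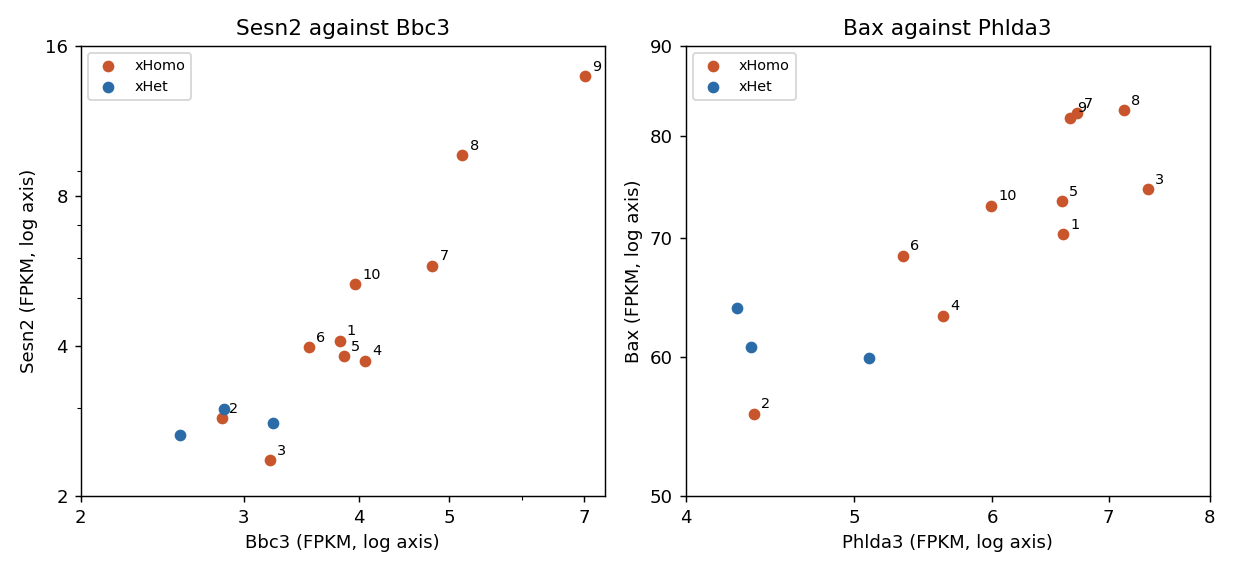
Sesn2 against Bbc3 (left) and Bax against Phlda3 (right), FPKM on log axes, with 1 point per embryo and xHomo embryos numbered. xHomo embryos 7, 8 and 9 lie at the upper right of the left panel, and xHomo embryo 2 lies at the lower left of both, beside the xHet embryos.

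Across the xHomo embryos the genes most like Cdkn1a, by Pearson r over these 10 embryos and among all genes tested outside the members, were Ppp3cc (r = 0.965), Fbxl12 (0.942), Gm5918 (0.941), Hspb6 (0.935) and Pck2 (0.926). These values describe the pattern and rest in part on xHomo embryo 9, where Cdkn1a and each of these genes was highest. Between the groups they overlapped, unlike Cdkn1a. Fbxl12 was 5.69 to 11.9 FPKM in xHomo embryos and 8.27, 8.11 and 8.22 FPKM in xHet embryos 1 to 3. Hspb6 was 1.25 to 4.6 FPKM in xHomo and 2.97, 1.62 and 1.91 FPKM in xHet embryos 1 to 3. Most like the mean of the 10 standardised members were Fbxo44 (r = 0.974), Timm44 (0.970), Gorab (0.969), Rarb (0.967) and Zhx2 (0.965).

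Upstream of the members, Trp53, which encodes p53, was abundant. It ran from 88.7 to 121 FPKM in the xHomo embryos, with a mean of 104 ± 11.0 FPKM (SD, n = 10), against 93.2 ± 7.85 FPKM in xHet embryos (SD, n = 3; log2 change 0.15, limma adjusted p = 0.647). In xHomo embryo 9, where Cdkn1a, Ccng1, Bbc3 and Sesn2 were highest, Trp53 was at its lowest among the xHomo embryos (88.7 FPKM), against 85.8 FPKM in the lowest xHet embryo. Transcript levels do not measure p53 protein or its activity. Mdm4 stood at 11.7 ± 3.22 FPKM in xHomo and 13.6 ± 0.197 FPKM in xHet embryos (limma adjusted p = 0.757). It was 4.36 FPKM in xHomo embryo 3 and at least 10.15 FPKM in the other xHomo embryos. In 8 xHomo embryos it lay below the xHet range and in 2 above it.

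Of 23 p53 regulators tested 0 passed in limma. At an unadjusted p under 0.05, 2 were higher and 0 lower, and the median log2 change was 0.07. Over all genes tested, here and for the lists that follow, 7.63% were higher and 1.72% lower at that p, and the median was 0.05. The smallest p were those of Trp63, a p53 relative (2.45 ± 0.407 FPKM in xHomo, 1.71 ± 0.375 FPKM in xHet embryos, limma adjusted p = 0.494), and of Rpl11, a ribosomal protein that binds Mdm2 (1557 ± 342 and 1114 ± 79.6 FPKM, limma adjusted p = 0.517). Rpl5, which acts alongside Rpl11, was 719 ± 160.3 and 544 ± 30.2 FPKM, and Rfwd2, which encodes the p53 ubiquitin ligase Cop1, was 18.9 ± 1.93 and 16.6 ± 0.236 FPKM. Ribosomal protein genes have near-identical copies, so the values of Rpl11 and Rpl5 are uncertain.

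Further p53 targets were counted beside the members. Of 33 tested, limma called 0, with 1 higher and 0 lower at an unadjusted p under 0.05, 18 positive and 15 negative changes and a median log2 change of 0.03. Siva1, a proapoptotic gene, stood at 81.9 ± 13.3 FPKM in xHomo and 65.0 ± 7.83 FPKM in xHet embryos (limma adjusted p = 0.530). Eda2r, an ectodysplasin receptor gene, stood at 1.24 ± 0.495 and 0.707 ± 0.104 FPKM, Dcxr, a xylulose reductase gene, at 3.75 ± 1.30 and 2.28 ± 0.387 FPKM, and Btg2, an antiproliferative gene, at 7.84 ± 1.2 and 6.40 ± 0.261 FPKM (limma adjusted p = 0.544 for each). These are the 4 with the smallest p of that list.

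Partners and downstream genes were counted in the same way. Among 20 BCL2 family and caspase genes limma called 0, with 1 higher and 1 lower at an unadjusted p under 0.05. The lower one was Bcl2l11, which encodes the BH3-only protein Bim, at 7.88 ± 0.621 FPKM in xHomo and 9.52 ± 0.50 FPKM in xHet embryos (limma adjusted p = 0.494), and all 10 xHomo embryos lay below the xHet range, as for 0.58% of all genes. The executioner Casp6 was 16.8 ± 1.99 and 13.4 ± 1.38 FPKM, Bcl2l1, which encodes the antiapoptotic Bcl-xL, 17.6 ± 1.77 and 15.3 ± 1.13 FPKM, and Diablo, an inhibitor of IAP proteins, 29.0 ± 2.31 and 26.0 ± 2.08 FPKM.

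Cell cycle genes that p21 and the DREAM repressor hold down when p53 is active were tested as 16 genes. Limma called 0, with 2 higher and 0 lower at an unadjusted p under 0.05, and a median log2 change of 0.10. Ccnb2, a mitotic cyclin, was 47.2 ± 4.91 FPKM in xHomo and 38.0 ± 1.74 FPKM in xHet embryos (limma adjusted p = 0.486), Birc5, which encodes survivin, 82.4 ± 9.24 and 70.3 ± 6.06 FPKM, Cdk1 51.5 ± 4.93 and 45.5 ± 3.44 FPKM, and Ccna2, an S-phase cyclin, 77.6 ± 6.27 and 70.5 ± 0.987 FPKM. In xHomo embryo 9, with Cdkn1a at 8.39 FPKM, these 4 genes stood at 51.3, 71.2, 46.2 and 72.9 FPKM. Among the xHomo embryos this was the lowest level of Birc5, and 1 other embryo was lower for Cdk1. For Ccna2 xHomo embryos 1 and 4 were lower (71.0 and 70.8 FPKM). For Ccnb2 only xHomo embryo 8 was higher (54.9 FPKM). Birc5 and Cdk1 were within the xHet range, and Ccnb2 and Ccna2 were above it.

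Because Sesn2 answers to ATF4 as well as p53, genes of the ATF4 stress response were set beside it. Limma called 0 of 9, with 1 higher and 0 lower at an unadjusted p under 0.05. That gene was Phgdh of serine synthesis, at 87.2 ± 7.86 FPKM in xHomo and 73.6 ± 4.79 FPKM in xHet embryos (limma adjusted p = 0.508). Psat1 of the same pathway was 85.4 ± 14.3 and 74.7 ± 4.30 FPKM. Phgdh was highest in xHomo embryo 5 (102 FPKM) and Psat1 in xHomo embryo 9 (111 FPKM). Asns, which encodes asparagine synthetase, was 70.3, 48.0 and 35.4 FPKM in xHomo embryos 9, 8 and 7, 29.6 FPKM in xHomo embryo 10, 22.5 to 33.0 FPKM in the other 6 and 26.9, 24.7 and 24.9 FPKM in xHet embryos 1 to 3. xHomo embryo 10 thus lay within the range of the other 6 for Asns. Chac1, a glutathione-degrading enzyme gene, was 7.98, 3.61, 2.17 and 0.99 FPKM in xHomo embryos 9, 8, 7 and 10, at most 0.50 FPKM in the other 6, and 0.25, 0.26 and 0.26 FPKM in xHet embryos 1 to 3.

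The 4 xHomo embryos highest in Chac1 are thus the 4 highest in Sesn2, in the same order. Trib3 and Ddit3, chosen after their values were seen, were highest in xHomo embryo 9 too, at 11.2 and 25.8 FPKM, against at most 3.43 and 9.36 FPKM in xHet embryos. In xHomo embryos 7, 8 and 10 Ddit3 was 8.50, 8.67 and 8.45 FPKM, within the xHet range. Trib3 was 4.16, 4.28 and 2.71 FPKM in these embryos, the last of them within the xHet range. Ddit4 and Ier3, also chosen after their values were seen, were 95.4 to 177 and 7.24 to 22.7 FPKM in xHomo embryos 7 to 10. They were at most 31.95 and 3.41 FPKM in the other 6 xHomo embryos and at most 21.7 and 2.83 FPKM in the xHet embryos. Ddit4 encodes an mTORC1 inhibitor induced by hypoxia and p53, and Ier3 an immediate early gene product. Both belong to the list of further p53 targets counted above, which did not follow them as a whole. Of the 4 genes named from it by p, Siva1 was highest in xHomo embryo 7, Eda2r in 9, Dcxr in 1 and Btg2 in 5. Btg2 was lowest in xHomo embryo 9, at 6.14 FPKM, against 6.19 to 6.69 FPKM in xHet embryos. The part of the pattern of xHomo embryos 7 to 10 in the values of Sesn2 and Bbc3 was not tested.

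**Figure D5:**
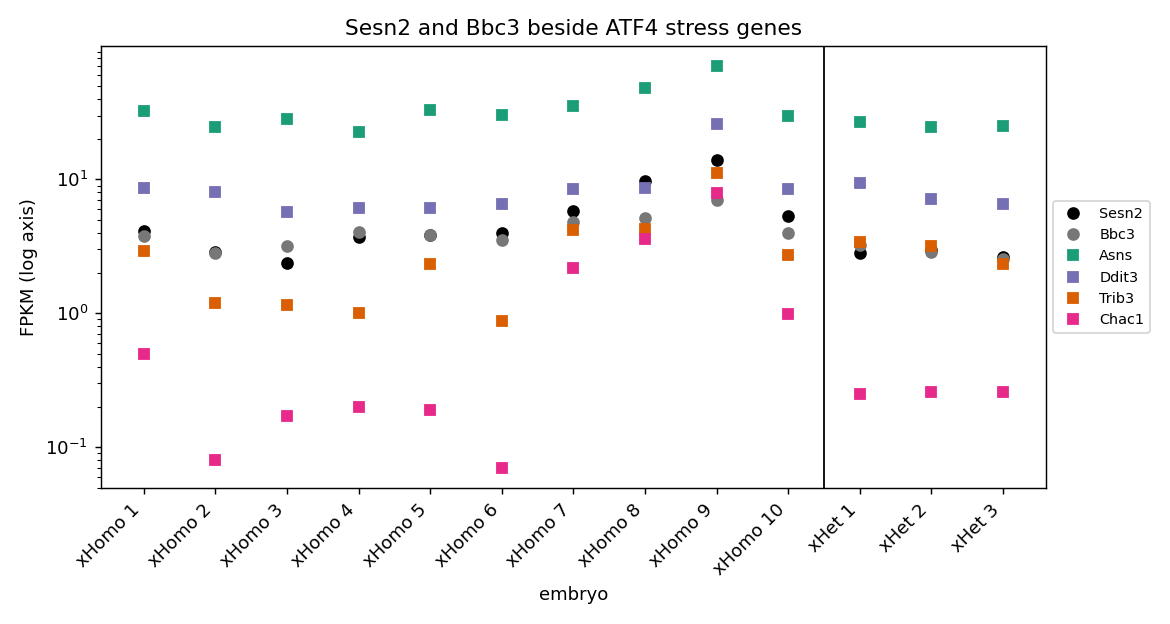
FPKM (log axis) of Sesn2 and Bbc3 (circles) and of Asns, Ddit3, Trib3 and Chac1 (squares) in each embryo, xHomo left of the line and xHet right. All 6 genes are highest in xHomo embryo 9, and Chac1 runs from 0.07 FPKM in xHomo embryo 6 to 7.98 FPKM there. Ddit3 and Trib3 were chosen after their values were seen. Of the ATF4 stress genes not shown, Phgdh was highest in xHomo embryo 5 and Psat1 in xHomo embryo 9.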

How the data were processed

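Polyadenylated RNA of 13 embryos was sequenced from directional libraries, per the labels' protocols. The authors deposited values in FPKM, 1 per gene and embryo, with loci on build mm9. The submitters' processing notes name bcl2fastq 1.8.2, as well as TopHat and Cufflinks. Annotation, filters and strand handling: not given in the sources used here. Since FPKM holds no count, depth is unknown, no counting interval is given, and abundant RNAs can shift all other values.

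Genes with a mean of at least 1 FPKM were tested (12755, all 10 members among them; no member is listed at 0 in any embryo) on log2(FPKM+1), which understates changes of low genes, with limma 3.58.1 in R 4.3.3 (eBayes with a trend, two-sided, no covariate, Benjamini-Hochberg over all genes tested). Correlations used 100000 permutations, two-sided (Python 3.11.15, numpy 2.4.6, pandas 2.3.3, scipy 1.17.1, matplotlib 3.10.9). The fit was tested on simulated data. Alternatives were other pseudocounts, filters, scalings, weights, a Xist covariate, an exact permutation test, a replicate block and leaving out each embryo. Members and lists were chosen with earlier results of these data known. The text names all members, Trp53, Mdm4, Xist, the 4 genes of smallest p per pathway list (none passed) and the 5 genes most like Cdkn1a or the members' mean. Loci are printed as the deposited table gives them, and RefSeq sequences are on another build, GRCm38.p6.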

Additional observations from a re-analysis of the deposited data

Results flagged for a closer look

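Among the 10 xHomo embryos, single values stood far from the rest on log2(FPKM+1) for 5 of 32 genes examined on both sides, where Dixon's ratio (the gap to the nearest embryo over the whole range) exceeded 0.466. Chance flags about 1 in 20 groups. Cdkn1a was 8.39 FPKM in xHomo embryo 9, the highest (ratio 0.51). The other 4 all fell on xHomo embryo 3, the embryo with 62.3% of all genes below the xHet range. Zmat3 was the lowest there at 6.19 FPKM (ratio 0.659), as was Mdm4 at 4.36 FPKM (ratio 0.608) and Bcl2l11 at 6.56 FPKM (ratio 0.486), and Birc5 was the highest there at 104 FPKM (ratio 0.468).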

How the results depend on the processing

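The number of members called was 0 under 23 of 24 alternatives and 5 with array weights. Over all genes 3 passed as deposited, 11 with no filter on low values, 1 with a mean of at least 5 FPKM, 5 after TPM rescaling, 5 after quantile normalization, 2779 with array weights, 1 with the Xist covariate, 0 in the exact permutation test (smallest adjusted p = 0.388) and 1 to 11 on leaving out single embryos (11 without xHomo embryo 3, 5 without xHomo embryo 2, and 1 without xHet embryo 2 or 3). The causes were not tested. Replicate numbers are shared by xHomo and xHet embryos 1 to 3. Same-numbered embryos deviated from their group means with r of -0.065, -0.040 and -0.038 across genes. Differently numbered ones had r of -0.060 to 0.105. These values show no pairing by number, but with 3 xHet embryos they cannot tell whether a number marks a shared litter or batch. The replicate block gives the other xHomo embryos no xHet embryo to compare with. Its changes thus rest on embryos 1 to 3 of each group alone. With this block 1 gene and 0 members passed, and 0 members had an unadjusted p under 0.05. The log2 change was 0.39 for Cdkn1a, 0.33 for Phlda3, 0.22 for Ccng1, 0.17 for Trp53inp1, 0.14 for Bbc3 and 0.11 for Bax. It was 0.086 for Sesn2, -0.16 for Mdm2, -0.11 for Zmat3 and -0.15 for Perp, the last pair reversed. The sign of 8 of 10 members held under every one of the 24 alternatives that tested them. Zmat3 also reversed after TPM (-0.055), median-of-ratios (-0.019) and quantile (-0.0039) scaling and without xHet embryo 1 (-0.0027), and Perp without xHet embryo 3 (-0.018). On leaving out single embryos Zmat3 ran from -0.0027 to 0.055 and Perp from -0.018 to 0.27. Between 0 and 2 pairs of members passed in r when single xHomo embryos were left out, against 2 with all of them. The minimum of 5 FPKM left Cdkn1a, Bbc3, Sesn2 and Trp53inp1 untested. Low FPKM values such as those of Cdkn1a, Bbc3, Sesn2 and Trp53inp1 are the least certain, since the depth is unknown.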
